A study of Homo sapiens with 12 samples.

Results

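The clustered histone genes are the many near-identical gene copies, most of them grouped on chromosomes 6 and 1, that encode the linker histone H1 and the core histones H2A, H2B, H3 and H4. They were taken by gene symbol: H1- followed by a digit, H2AC, H2BC, H3C or H4C, or an older name of the HIST1 to HIST4 type. The array held a probe with 1 gene symbol for 73 of them, among 20042 genes so represented. A gene was kept if a probe had a detection p-value, the chance of such a signal from negative control beads, under 0.05 on at least 3 of 12 arrays, and its brightest such probe stood for it. This left 32 histone genes among the 12566 genes tested.

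Total RNA came from Caco-2 cells, a human cell line derived from a colorectal tumour, in 4 groups of 3 arrays. The first was a line labelled as carrying a short hairpin RNA (shRNA) that targets NR5A2, the gene for the nuclear receptor LRH-1, harvested 96 hours after 5 µg/ml doxycycline, the drug that switches on the vector's promoter. The second was that line without the drug. The third was a control line given the same doxycycline for the same time, and the fourth was that control line without it. The titles call the control line native and its genotype label calls it a non-silencing vector control, which leaves its nature unsettled. More than 1 hairpin was cloned into the vector pTripZ according to the design text, and which of them the arrayed line carried is not stated. Separate cultures are not mentioned for the arrays of a group, so the p-values below rest on the spread among these arrays alone, and that spread may be technical.

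Nucleosomes wrap DNA around an octamer of H2A, H2B, H3 and H4, and H1 binds the linker DNA between them. Most clustered histone genes are transcribed in S phase, when new DNA must be packaged, and their mRNAs end in a conserved stem-loop in place of a poly(A) tail. The stem-loop binding protein SLBP binds that end, and the transcript is degraded when DNA synthesis stops. Some of these genes also make polyadenylated transcripts, by reading on to a downstream signal, and these have been described in differentiated and non-dividing cells. The RNA amplification kit named in the labels starts from an oligo(dT) primer, so transcripts without a poly(A) tail are poorly represented in such data, and a level here is not a level of total histone mRNA.

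Median probe intensity lay between 251 and 386 on the 12 arrays, 41.2% to 44.7% of probes were detected, and arrays of 1 group correlated at r = 0.987 to 0.993 over the genes tested. Of 10 intestinal epithelium markers, 9 had a probe, 7 were detected on all 12 arrays and CDX1 was detected on none. Their summed signal was 82079 to 88205 and 77182 to 82546 in the shRNA-labelled line with and without doxycycline. In the control line it was 83753 to 88244 and 80734 to 89392. With the drug 2 of 8 tested rose in each line, where 6.49% and 7.88% of all genes rose. KRT20 rose by 2.42 in the shRNA-labelled line, against 1.76 in the control line (limma, adjusted p = 0.00184 and 0.00912). LGALS4 also rose in the shRNA-labelled line, by 0.68, and KRT18 in the control line, by 1.13. NR5A2, the labelled target, had a mean log2 intensity of 10.69 ± 0.14 in the shRNA-labelled line with doxycycline and 10.19 ± 0.068 without, and of 11.07 ± 0.11 in the control line with doxycycline and 10.19 ± 0.093 without (SD, n = 3 each). With doxycycline it rose by 0.50 ± 0.10 (log2, SE; limma, adjusted p = 0.00997) in the shRNA-labelled line. The rise was 0.89 ± 0.10 in the control line (limma, adjusted p = 0.000387). The target was thus not lower in the line labelled as silenced than in the same line without the drug. The difference of the 2 responses was -0.38 ± 0.15 and did not pass (limma, adjusted p = 0.231). Under doxycycline the difference of NR5A2 between the shRNA-labelled and the control line was -0.38 ± 0.10 (limma, adjusted p = 0.0217). Without it the difference was 0 ± 0.10 (limma, adjusted p = 0.983). These values do not settle whether the hairpin lowered the target. Of 7 fibroblast markers, COL1A2 and THY1 were detected on no array and 3 on all 12. Their summed signal was 4516 to 4855 in the shRNA-labelled line with doxycycline and 3169 to 3386 without, and 5760 to 6875 in the control line with doxycycline and 3639 to 3999 without. Of 6 leukocyte markers, 5 had a probe, CD14, CD68 and LYZ were detected on all 12 arrays and PTPRC on none. Their summed signal was 7118 to 8283 in the shRNA-labelled line with doxycycline and 6596 to 6952 without, and 7965 to 8576 in the control line with doxycycline and 7904 to 8875 without. LYZ, which encodes lysozyme, rose with doxycycline by 1.64 in the shRNA-labelled line, against 0.87 in the control line, and CD14 was lower by a log2 difference of -0.64, against -0.68 (limma, adjusted p = 0.000206, 0.00671, 0.00437 and 0.00261). All 7 hepatocyte markers had a probe, of which ALB, CPS1, SERPINA1 and TTR were detected on all 12 arrays and TAT, CYP2E1 and CYP3A4 on none. Their summed signal was 54563 to 67834 in the shRNA-labelled line with doxycycline and 69991 to 76671 without, and 69985 to 74494 in the control line with doxycycline and 76431 to 78421 without. The part of these marker lists in the histone results was not tested.

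The share of genes that passed the filter was similar among the core histone classes. It was lowest for H1, and differences between classes were not tested. Of all 20042 genes with a probe of 1 symbol, 12566 passed. Of the linker histone H1 genes, 3 of 9 passed the filter. Of the H2A genes 8 of 17 passed, of the H2B genes 8 of 18, of the H3 genes 6 of 14 and of the H4 genes 7 of 15. All 12 arrays detected 21 of the 32 genes that passed. Of the 41 that did not pass, 37 were detected on no array. Just inside the limit were H3C4, detected on 3 arrays, and H3C10, detected on 4, and just outside were H1-1, H2BC6 and H2BC15, detected on 2 arrays each. H3C12 was detected on 1 array. The symbol rule also takes genes outside the clusters, such as H1-10, a replacement linker histone. Probes of 1 gene could differ in detection: both H2BC5 probes designed to the RefSeq transcript NM_138720 were detected on 12 arrays, and the probe designed to NM_021063 was detected on 0. Whether this lay in the probe or in the transcript was not tested.

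**Figure D1:**
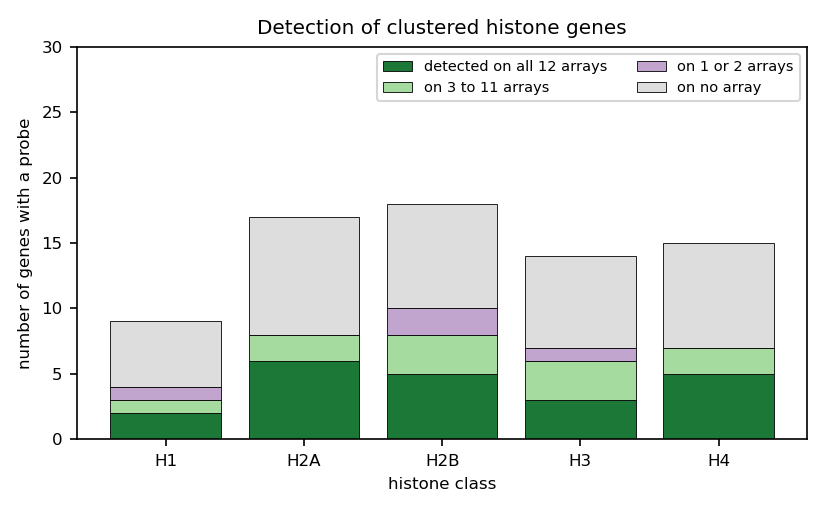
Number of histone genes with a probe, by class, split by the number of arrays that detected them (bars, count of genes). Between 3 of 9 (H1) and 8 of 17 (H2A) genes passed the filter of 3 arrays, and 37 of all 73 genes were detected on no array.

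The bases before the start site of 6 genes that the results below turn on are printed to show how alike and unlike their promoters are. They are from RefSeq (GRCh38.p14), 250 bases on the gene's own strand. Capitals mark 3 motifs on either strand. The first is the octamer ATTTGCAT, a known element of H2B promoters that the factor POU2F1 binds, which reads ATGCAAAT on the other strand. The second is the TATA box, searched as TATAAA. The third is the CCAAT box. Matches of the same motif on opposite strands can overlap, as in TTTATAAA. H2AC6 has the largest difference of the family with doxycycline in the control line and between the lines under doxycycline, and lies at chr6:26123922-26124171 (+). H2BC5 is an H2B gene with no octamer match, at chr6:26157871-26158120 (+). H2AC19 is at chr1:149850811-149851060 (+), H4C14 at chr1:149832407-149832656 (+), H2BC12 at chr6:27146859-27147108 (-) and H2BC11 at chr6:27132796-27133045 (-).
H2AC6: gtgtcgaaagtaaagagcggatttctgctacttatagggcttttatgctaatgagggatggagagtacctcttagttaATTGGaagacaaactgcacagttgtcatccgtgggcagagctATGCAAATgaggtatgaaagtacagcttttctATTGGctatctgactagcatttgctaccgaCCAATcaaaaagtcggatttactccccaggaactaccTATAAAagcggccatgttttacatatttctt
H2BC5: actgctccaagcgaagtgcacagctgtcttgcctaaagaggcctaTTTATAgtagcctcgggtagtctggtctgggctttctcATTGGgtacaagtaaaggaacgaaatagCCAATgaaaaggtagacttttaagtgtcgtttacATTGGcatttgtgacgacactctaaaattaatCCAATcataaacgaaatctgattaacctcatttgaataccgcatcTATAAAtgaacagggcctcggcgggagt
H2AC19: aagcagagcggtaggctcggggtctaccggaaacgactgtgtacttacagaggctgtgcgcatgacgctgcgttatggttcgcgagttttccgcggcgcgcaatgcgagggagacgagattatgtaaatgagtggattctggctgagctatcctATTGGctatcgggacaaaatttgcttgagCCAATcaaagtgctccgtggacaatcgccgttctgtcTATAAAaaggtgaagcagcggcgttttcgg
H4C14: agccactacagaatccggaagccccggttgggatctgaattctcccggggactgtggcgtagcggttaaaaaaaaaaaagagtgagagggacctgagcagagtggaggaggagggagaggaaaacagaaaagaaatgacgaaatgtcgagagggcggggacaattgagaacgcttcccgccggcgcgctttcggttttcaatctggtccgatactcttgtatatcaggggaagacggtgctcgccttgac
H2BC12: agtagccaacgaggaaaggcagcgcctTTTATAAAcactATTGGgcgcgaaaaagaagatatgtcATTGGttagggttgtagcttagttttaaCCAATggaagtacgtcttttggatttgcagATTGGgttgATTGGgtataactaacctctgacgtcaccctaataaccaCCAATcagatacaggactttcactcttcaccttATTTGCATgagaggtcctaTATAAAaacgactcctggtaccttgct
H2BC11: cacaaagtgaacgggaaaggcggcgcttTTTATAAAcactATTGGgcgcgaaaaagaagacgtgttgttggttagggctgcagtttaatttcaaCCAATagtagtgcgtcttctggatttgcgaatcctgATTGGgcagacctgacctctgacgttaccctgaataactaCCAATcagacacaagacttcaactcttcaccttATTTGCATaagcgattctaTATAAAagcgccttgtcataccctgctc

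Of the 73 genes, 68 had a promoter entry, and of the 32 that passed the filter 31 had one. By chromosome, 50 of the 68 were on chromosome 6, 14 on chromosome 1, 2 on chromosome 12 and 2 on chromosome 3. Searched over 300 bases, 250 before and 50 after the start, the octamer was found in 7 of 8 promoters of passing H2B genes, in 5 of 8 of H2A genes and in 1 of 6 of H3 genes. None of the 6 H4 promoters and none of the 3 H1 promoters held it. The 5 H2A genes, and the H3 gene H3C4, each lie in a pair of histone genes with divergent starts at most 248 bases apart. The windows of such a pair overlap, so 1 motif match can count for both members, and the promoters are not all separate. Over all 35116 promoters of the table, 1.77% held the octamer. The TATA box was in 21 of the 31 histone promoters and in 11.5% of all promoters. The CCAAT box was in every one of the 22 promoters of passing H2A, H2B and H3 genes, in none of the 6 H4 promoters, and in 34.6% of all promoters. H2AC18 and H2AC19 shared 299 of 299 aligned bases, H4C14 and H4C15 shared 300 of 300, and H2BC11 and H2BC12 shared 233 of 285 (81.8%). The values of H2AC18 and H2AC19, and of H4C14 and H4C15, are uncertain as separate measurements, since near-identical copies can bind the same probe.

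In the shRNA-labelled line 2 H2A genes passed the test as higher with doxycycline, and no gene of the other classes passed. The share of histone genes that rose was near that of all genes. Under a limma fit over all 12566 genes, 2 of the 32 histone genes (6.25%) rose and 0 fell, where 11.5% of all genes passed in either direction, 6.49% higher and 5.01% lower. H2AC18 and H2AC6, both encoding core histone H2A, were those that rose. The median difference of the 32 genes was -0.10 on the log2 scale and that of all genes was -0.02. By class the medians were 0.25 for H2A, -0.10 for H2B, -0.16 for H3, -0.06 for H4 and -0.14 for H1.

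H2AC18 had log2 levels of 9.84, 9.80 and 9.81 in the shRNA-labelled line with doxycycline and of 9.14, 9.02 and 9.38 without. Every array with the drug was above every array without it. The difference was 0.64 ± 0.12 (log2, SE; limma, adjusted p = 0.00618). The second detected probe of H2AC18 gave 0.41 ± 0.26 and did not pass (limma over all probes past the filter, adjusted p = 0.412). H2AC6 had levels of 9.49, 9.37 and 9.40 with doxycycline and of 8.65, 8.94 and 8.77 without, again with no overlap. Its difference was also 0.64, with an SE of 0.17 (limma, adjusted p = 0.0346). Both calls were lost when arrays were scaled to a common median in place of quantile normalization, with adjusted p of 0.143 for H2AC18 and 0.106 for H2AC6 in limma. The H2AC6 call was also lost with no filter on dim probes (limma, adjusted p = 0.0501) and without any 1 of 5 of the line's 6 arrays, all but replicate 2 without doxycycline, with limma's adjusted p between 0.062 and 0.106.

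In the control line 4 H2A genes, 1 H2B gene and 1 H4 gene rose with doxycycline, and 1 H3 gene whose call was lost under most alternatives tried. Of the 32 genes 7 rose (21.9%) and 0 fell, where 16% of all genes passed in either direction, 7.88% higher and 8.1% lower. The 7 were H2AC6, H2AC18, H2AC19 and H2AC8 of class H2A, H2BC5 of class H2B, H4C15 of class H4 and H3C6 of class H3. The 7th, H3C6, had the largest adjusted p and was named after its value was seen. All 8 H2A differences were above 0, with a median of 0.54. Above 0 were also 5 of 8 H2B, 4 of 6 H3, 5 of 7 H4 and 2 of 3 H1 differences. The medians were 0.31 for H2B, 0.12 for H3, 0.17 for H4 and 0.06 for H1, and 0.21 over the 32 genes beside -0.01 over all genes.

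H2AC6 showed the largest change of the family, with levels of 10.58, 10.94 and 10.91 in the control line with doxycycline and of 9.28, 9.06 and 9.79 without. The groups did not overlap, although the arrays without the drug spread more widely. The difference was 1.44 ± 0.17 (limma, adjusted p = 0.000428). H2BC5 had levels of 13.08, 13.10 and 12.95 with doxycycline and of 12.40, 12.24 and 12.41 without, a difference of 0.70 ± 0.11 (limma, adjusted p = 0.00187). Its second detected probe gave 0.70 ± 0.11 as well. H2AC19 had levels of 10.25, 10.33 and 10.31 with the drug and of 9.56, 9.53 and 9.65 without. H2AC18, its near-identical copy, had 10.19, 10.40 and 10.35 with the drug and 9.65, 9.28 and 9.50 without. Neither gene overlapped between the groups, and the differences were 0.72 ± 0.10 for H2AC19 and 0.84 ± 0.12 for H2AC18 (limma, adjusted p = 0.0011 and 0.00113). The second probe of H2AC18 gave 1.0 ± 0.26.

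The other calls in the control line were closer to the threshold. H4C15, an H4 gene, had levels of 8.17, 8.59 and 8.54 with doxycycline and of 7.81, 8.07 and 7.91 without, a difference of 0.50 ± 0.13 (limma, adjusted p = 0.0197). H2AC8 had levels of 7.02, 7.14 and 6.94 with the drug and of 6.58, 6.30 and 6.31 without, and was detected on 3 arrays with the drug and on 1 without. Its difference was 0.64 ± 0.18 (limma, adjusted p = 0.0352). H3C6 differed by 0.52 ± 0.16 (limma, adjusted p = 0.0483), and that call was lost under 17 of the 24 alternatives tried, that of H2AC8 under 11 of 23 and that of H4C15 under 6 of 24. The count of 7 fell to 4 with median scaling, without replicate 2 or 3 of the control line with doxycycline, and without replicate 1 of that line without doxycycline.

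The difference between the responses of the lines was tested directly, as the response in the shRNA-labelled line minus that in the control line. No histone gene passed in limma, where 0.844% of all genes did, 0.462% above 0 and 0.382% below, and 7 of the 32 had an unadjusted p under 0.05, as did 1998 of the 12566 genes tested. All of these 7 differences were negative. H2BC11, an H2B gene, had the smallest p and was named after its value was seen: its difference of responses was -1.0 ± 0.23 (limma, adjusted p = 0.0722). The median over the 32 genes was -0.30 and that over all genes 0.01. With array weights 3 genes passed, H2BC11, H2AC6 and H2BC5, and with no background correction 1 did, H2AC6. Without replicate 3 of the shRNA-labelled line with doxycycline, 1 gene passed, H2BC11, and without replicate 3 of the control line without doxycycline 1 passed, H2AC6.

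**Figure D2:**
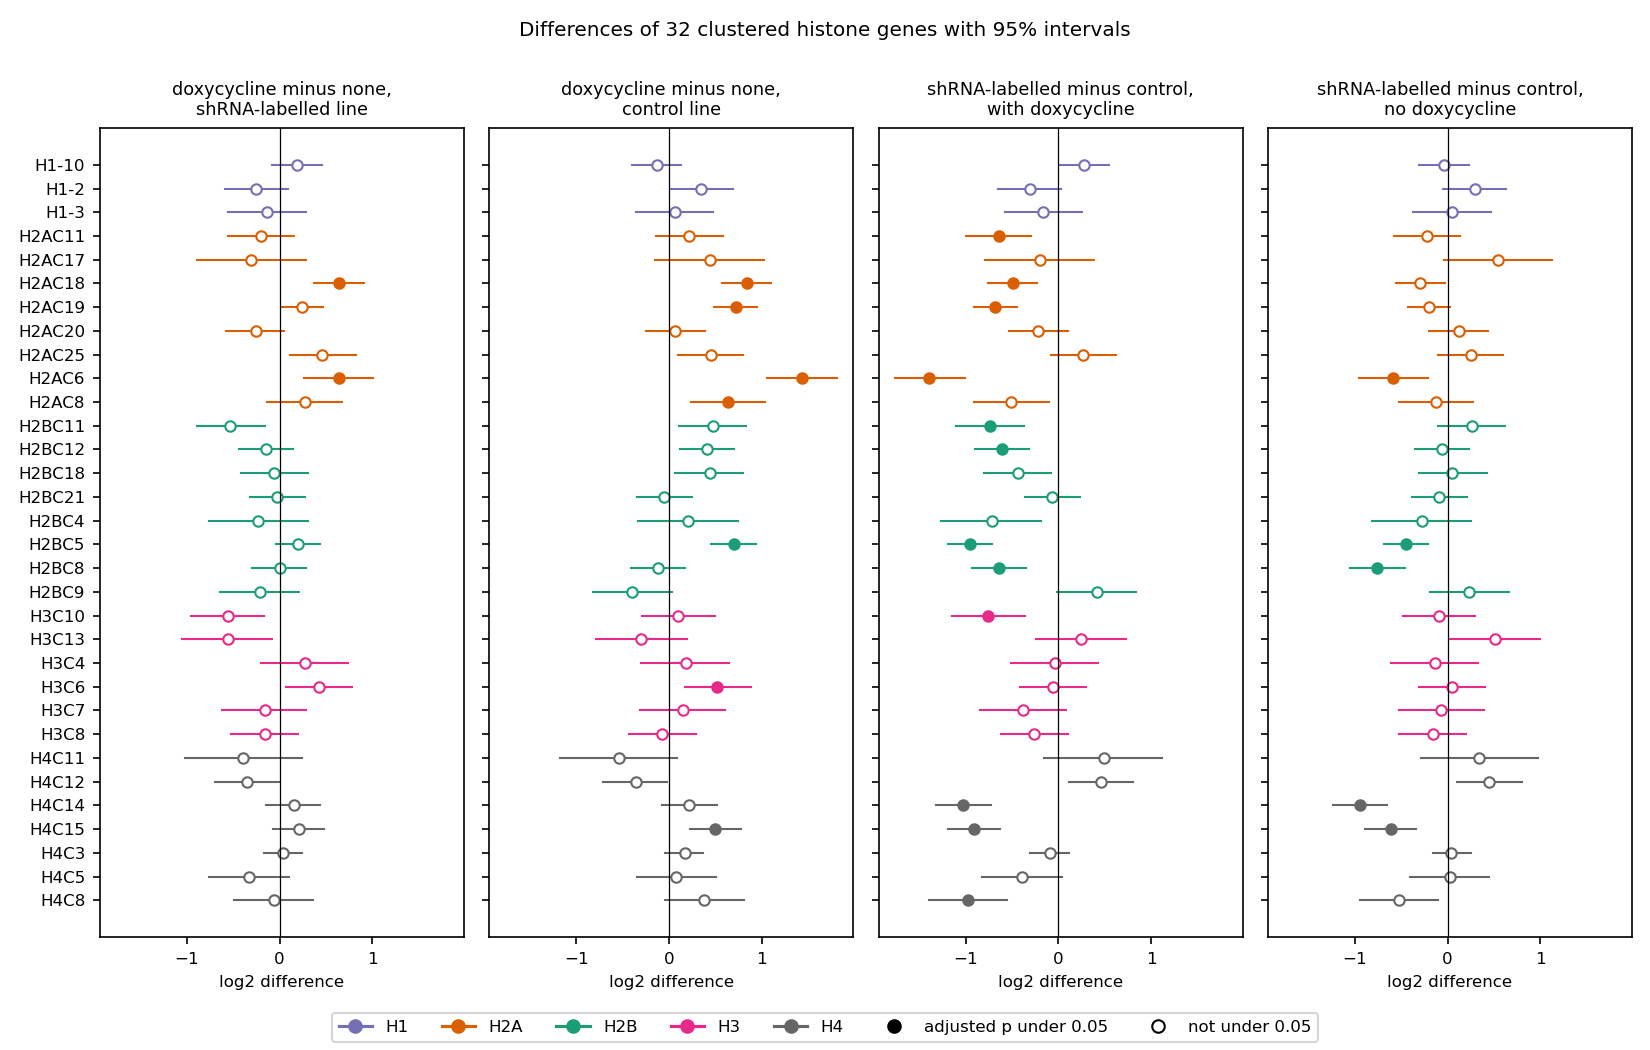
Log2 differences of the 32 histone genes (x axis) with 95% intervals, by gene and coloured by class, in 4 comparisons. Filled points have a limma adjusted p under 0.05: 2 genes rose with doxycycline in the shRNA-labelled line, 7 rose in the control line, and 12 with and 5 without doxycycline were lower in the shRNA-labelled line than in the control line.

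Under doxycycline the shRNA-labelled line had lower levels of some H2A, H2B and H4 genes than the control line, and of 1 H3 gene near the detection limit. Of the 32 genes 12 were lower (37.5%) and 0 were higher, where 22.6% of all genes passed in either direction, 10.9% higher and 11.8% lower. By class these were 4 of 8 H2A, 4 of 8 H2B, 1 of 6 H3 and 3 of 7 H4 genes, and 0 of 3 H1 genes. The difference was below 0 in 26 of the 32. The median was -0.38 beside 0.00 over all genes, and by class -0.50 for H2A, -0.62 for H2B, -0.16 for H3, -0.39 for H4 and -0.16 for H1. The count stayed between 11 and 15 under every alternative tried, single arrays left out included, and the median was nearer 0, at -0.06, when no filter on dim probes was used.

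H2AC6 was again the most different, with levels of 9.49, 9.37 and 9.40 in the shRNA-labelled line, against 10.58, 10.94 and 10.91 in the control line. The difference was -1.39 ± 0.17, or 2.62-fold lower (limma, adjusted p = 0.000192). H2BC5 had levels of 12.06, 12.06 and 12.17 in the shRNA-labelled line, against 13.08, 13.10 and 12.95 in the control line. It was 1.93-fold lower, at -0.95 ± 0.11 (limma, adjusted p = 0.000124), and its second detected probe gave -1.33 ± 0.11. Neither gene overlapped between the lines. H2AC19, with levels of 9.71, 9.53 and 9.61 in the shRNA-labelled line, against 10.25, 10.33 and 10.31 in the control line, differed by -0.68 ± 0.10 (limma, adjusted p = 0.000759).

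Of the H4 genes 3 were lower in the shRNA-labelled line. H4C14 had levels of 7.89, 7.88 and 8.20 in the shRNA-labelled line, against 8.83, 9.32 and 8.90 in the control line, a difference of -1.03 ± 0.14 (limma, adjusted p = 0.000306). H4C15, which shares its promoter sequence, had 7.40, 7.63 and 7.53 in the shRNA-labelled line, against 8.17, 8.59 and 8.54 in the control line, a difference of -0.91 ± 0.13 (limma, adjusted p = 0.000417). H4C8, a gene of the chromosome 6 cluster, had 7.16, 7.07 and 7.37 in the shRNA-labelled line, against 8.03, 8.33 and 8.14 in the control line, a difference of -0.97 ± 0.19 (limma, adjusted p = 0.00398). The lines overlapped in none of the 3. H4C3, another H4 gene, named after its value was seen, had means of 14.44 ± 0.058 in the shRNA-labelled line, against 14.53 ± 0.071 in the control line (SD, n = 3 each), and its difference of -0.09 had a 95% interval from -0.30 to 0.12.

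The remaining 6 genes that passed were H2BC8, H2BC12, H2BC11, H2AC18, H2AC11 and H3C10, of which all but H3C10 were named here after their values were seen. Leaving out H3C10, their differences lay between -0.74 and -0.49. H2BC12 had levels of 13.85, 13.38 and 13.89 in the shRNA-labelled line, against 14.27, 14.42 and 14.27 in the control line, and differed by -0.61 ± 0.13 (limma, adjusted p = 0.0064). Replicate 2 of the shRNA-labelled line was the lowest of its group, and without it the difference was -0.44 and still past the threshold. The second probe of H2BC12 gave -0.98 ± 0.12. H3C10, the only H3 gene to pass, was detected on 0 arrays of the shRNA-labelled line and on 2 of the control line. Its fitted difference of -0.76 ± 0.18 (limma, adjusted p = 0.0105) rests on undetected signals in the shRNA-labelled line. As a bound the control line was at least 1.09-fold higher, and that bound was not tested. The call of H2AC11 was lost when replicate 3 of the shRNA-labelled line or replicate 2 of the control line was left out (limma, adjusted p = 0.0511 for both), and that of H2AC18 with median scaling (limma, adjusted p = 0.076). The second probe of H2AC18 gave -0.73 ± 0.26 and did not pass (limma over all probes past the filter, adjusted p = 0.0823).

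**Figure D3:**
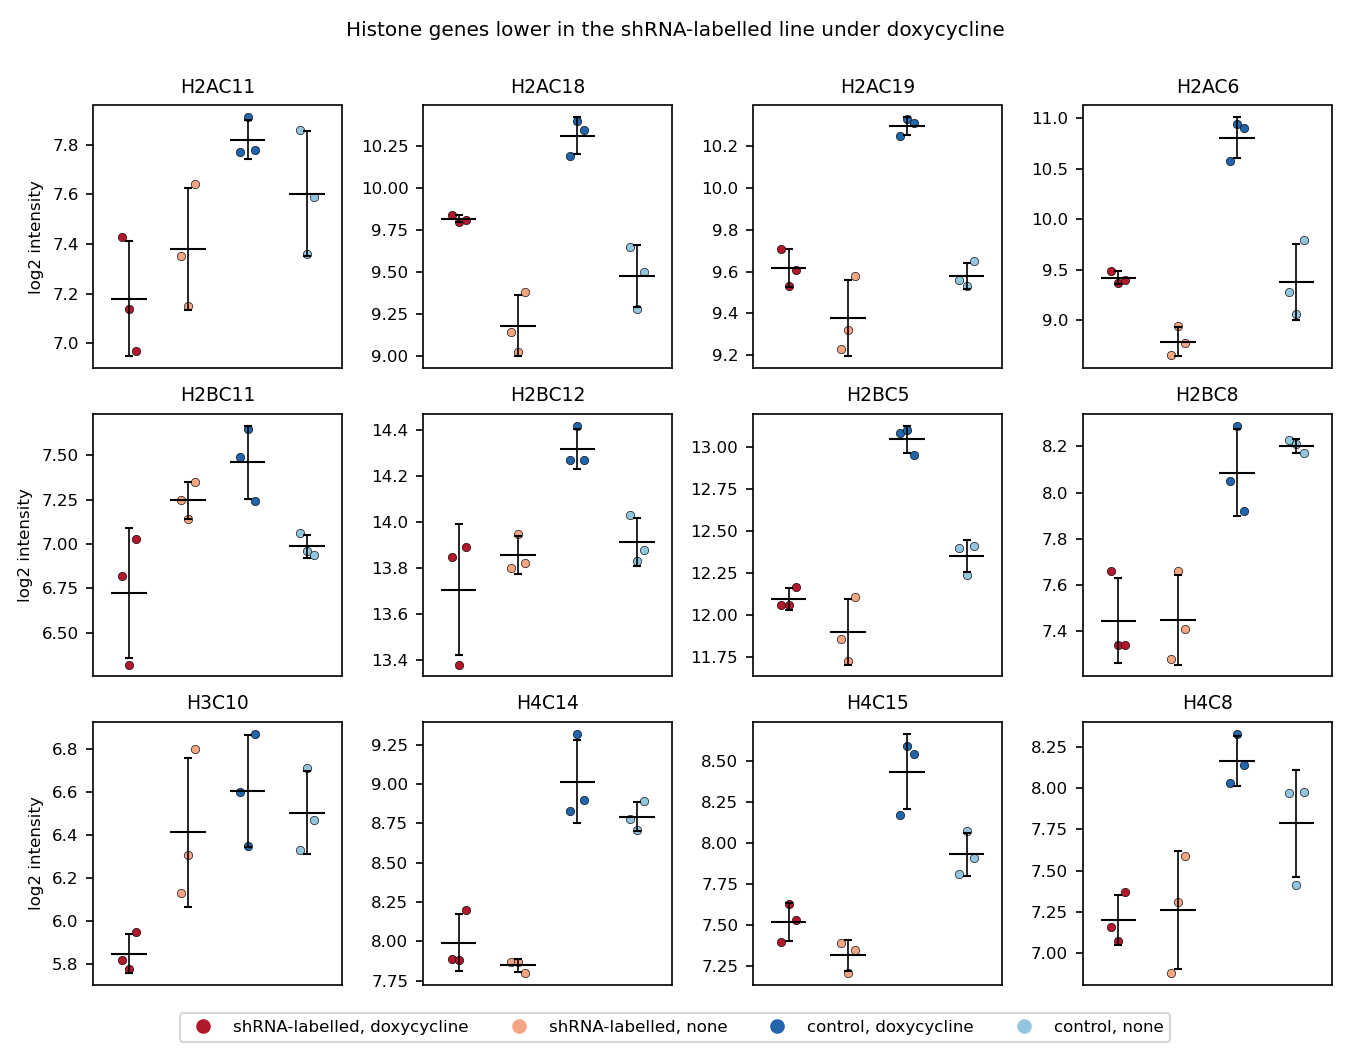
Normalized log2 intensity (y axis, its own range in each panel) of the 12 histone genes lower in the shRNA-labelled line than in the control line under doxycycline. Points are arrays, lines are means and bars are SD (n = 3), with groups from left to right as in the legend. In each of the 12 genes no array of the shRNA-labelled line with doxycycline reached the control line with doxycycline. The genes were chosen by this same comparison, so that gap is no separate evidence.

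Among the H1 genes none passed in any comparison. H1-10 came closest, with levels of 10.80, 10.98 and 10.73 in the shRNA-labelled line, against 10.77, 10.55 and 10.35 in the control line under doxycycline. The lines overlapped, and the difference was 0.28 ± 0.12, with a 95% interval from 0.01 to 0.55 (limma, adjusted p = 0.121). Over the 4 comparisons of groups and the difference of responses, 14 of the 32 histone genes passed at least once and 18 never did. The same count over all genes was not made, so whether 14 of 32 is many cannot be said.

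Without doxycycline the shRNA-labelled line was also lower for some of these genes. Of the 32 genes 5 were lower (15.6%) and 0 were higher, where 16.3% of all genes passed in either direction, 7.44% higher and 8.87% lower. The median was -0.06 beside -0.01 over all genes. H4C14 had levels of 7.87, 7.87 and 7.80 in the shRNA-labelled line, against 8.78, 8.71 and 8.89 in the control line, a difference of -0.95 ± 0.14 (limma, adjusted p = 0.000994). H2BC8 had levels of 7.28, 7.66 and 7.41 in the shRNA-labelled line, against 8.23, 8.21 and 8.17 in the control line, a difference of -0.76 ± 0.13 (limma, adjusted p = 0.00341). For both genes every array of the shRNA-labelled line was below every array of the control line.

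H4C15 differed by -0.61 ± 0.13 without doxycycline (limma, adjusted p = 0.00784), with levels of 7.39, 7.21 and 7.35 in the shRNA-labelled line, against 7.81, 8.07 and 7.91 in the control line. H2BC5 differed by -0.45 ± 0.11 (limma, adjusted p = 0.0178) and H2AC6 by -0.59 ± 0.17 (limma, adjusted p = 0.0377), and both calls were lost when certain single arrays were left out, with limma's adjusted p up to 0.065 for H2BC5 and 0.121 for H2AC6. With median scaling H2BC5 had an adjusted p of 0.256 in limma. The count fell to 3 without replicate 1 of the shRNA-labelled line or replicate 1 of the control line. All 5 genes were also among the 12 lower with doxycycline, comparisons that share no arrays: 100% of the 5 and 41.7% of the 12. Over all genes, 57.1% of those called without doxycycline were called in the same direction with it, and 41.2% of those called with it were called in the same direction without it.

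Genes that share a promoter region did not always pass together. H2A and H2B genes are often arranged head to head, and 12 pairs of histone genes had divergent starts within 400 bases of each other, of which 4 pairs had both members past the filter. H2AC6 and H2BC4 start 246 bases apart. Doxycycline raised H2AC6 by 1.44 in the control line, and the difference of H2BC4 was 0.21 and did not pass. H2BC11 and H2AC11, 248 bases apart, were both lower in the shRNA-labelled line under doxycycline, with differences of -0.74 and -0.64. H2BC8 and H2AC8, 233 bases apart, differed in which comparisons they passed: H2BC8 was lower in the shRNA-labelled line with and without doxycycline, and H2AC8 rose with doxycycline in the control line. H2BC21 and H2AC20, 236 bases apart, passed in none. The difference between members of a pair was not tested. Of the 12 genes lower in the shRNA-labelled line than in the control line under doxycycline, 5 had the octamer in their promoters. Of the other 19 promoters, 8 held it. H2AC6 and H2BC8 are among the 12, and their partners H2BC4 and H2AC8 are among the 19. The windows of partners overlap, so the same match can count more than once and on both sides. These counts therefore cannot show whether the octamer goes with the difference between the lines.

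The level of a class on an array is given as the mean over a class of each gene's level minus its own mean over the 12 arrays. For H2A these were -0.04 ± 0.17 in the shRNA-labelled line with doxycycline and -0.23 ± 0.14 without, and 0.44 ± 0.099 in the control line with doxycycline and -0.16 ± 0.13 without (SD, n = 3 each). The control line with doxycycline stood above the other groups for H2A on every array. For H2B they were -0.21 ± 0.15 and -0.09 ± 0.066 in the shRNA-labelled line with and without doxycycline, and 0.25 ± 0.15 and 0.05 ± 0.059 in the control line with and without it. For H4 they were -0.19 ± 0.029 and -0.08 ± 0.072 in the shRNA-labelled line with and without the drug, and 0.16 ± 0.15 and 0.10 ± 0.025 in the control line. For H3 they were -0.11 ± 0.09 and 0.01 ± 0.11 in the shRNA-labelled line with and without the drug, and 0.09 ± 0.051 and 0.00 ± 0.11 in the control line. The H1 means of the 4 groups lay between -0.06 and 0.04. No test was made of these class means.

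The genes for DNA replication, which S phase cells express together with the stem-loop histone mRNAs, had calls of the opposite sign to the histone calls in each comparison of groups, with GINS1, a subunit of a replicative helicase complex, as the exception. With doxycycline in the shRNA-labelled line the histone calls were only 2 of 32 (6.25%), near the 6.49% of all genes that rose. The median of those 32 was -0.10, of the same sign as that of the replication genes. Of 33 replication genes tested, 14 fell and 0 rose with doxycycline in the shRNA-labelled line, with a median of -0.36, where 5.01% of all genes fell. Among the same genes 25 fell and 1 rose in the control line, with a median of -0.65, where 8.1% of all genes fell. GINS1 was the gene that rose there, by 0.66 ± 0.20 (limma, adjusted p = 0.0454). Under doxycycline 22 of the 33 were higher in the shRNA-labelled line than in the control line and 0 lower, with a median of 0.49, where 10.9% of all genes were higher. Without it 10 were higher and 0 lower, with a median of 0.16, where 7.44% of all genes were higher. Over the alternatives tried, the 14 calls became 4 to 23, the 26 became 19 to 26, the 22 became 11 to 24 and the 10 became 4 to 10. The 14 were 6 to 8 without replicate 1 or 2 of the drug-treated shRNA-labelled line or replicate 1 or 3 of that line untreated, and the 10 were 5 or 6 without replicate 1 or 3 of either untreated line. CDC45, part of the replicative helicase, changed with doxycycline by -0.55 ± 0.11 in the shRNA-labelled line (limma, adjusted p = 0.0069), against -1.22 ± 0.11 in the control line (limma, adjusted p = 9.2e-05). MCM10, a replication initiation factor, was higher by 1.04 ± 0.12 in the shRNA-labelled line under doxycycline (limma, adjusted p = 0.000117). The part of these genes in the histone differences was not tested, and in bulk RNA fewer cells expressing a gene and less RNA per cell cannot be told apart.

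**Figure D4:**
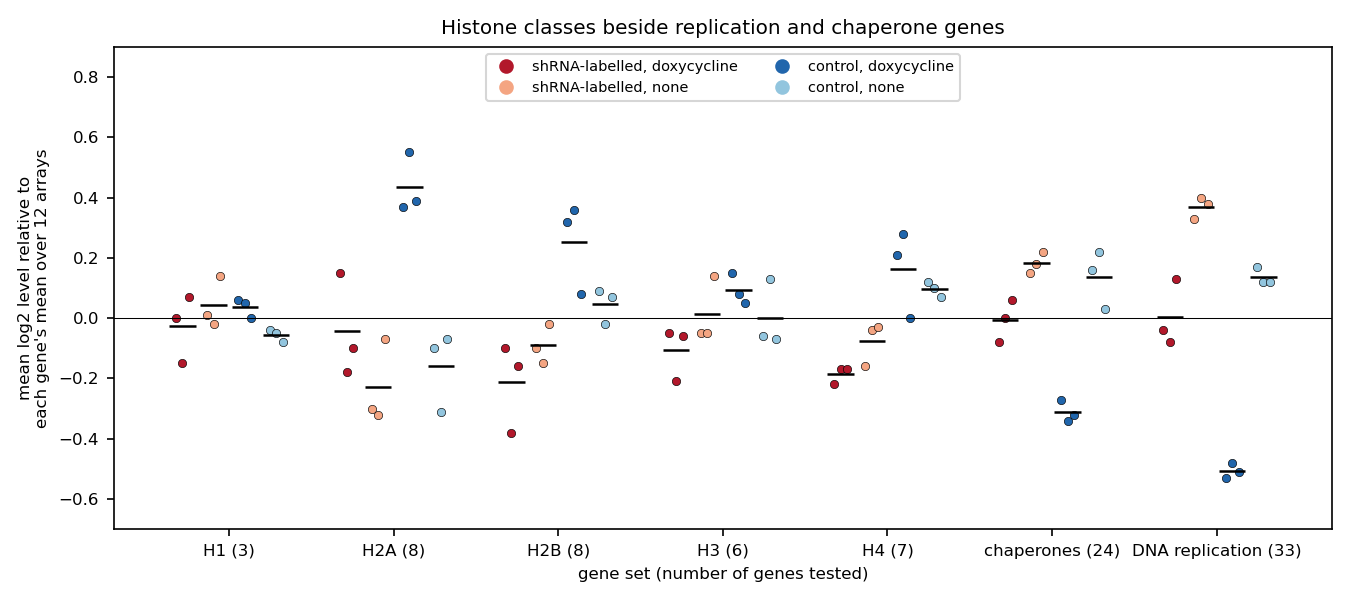
Mean log2 level of each gene set on each array, relative to each gene's own mean over the 12 arrays (points are arrays, lines are group means of 3 arrays, groups from left to right as in the legend). In the control line with doxycycline H2A stood at 0.44 and DNA replication genes at their lowest of the 4 groups.

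Genes for factors that carry and assemble histones had calls in the same directions as the replication genes, with MCM2 in both lists. Of 24 chaperone and assembly genes, 6 fell and 0 rose with doxycycline in the shRNA-labelled line, and 10 fell and 0 rose in the control line. Under doxycycline 7 were higher in the shRNA-labelled line than in the control line and 0 lower, and without it 2 were higher and 0 lower. The shares of all genes in those directions are the 5.01%, 8.1%, 10.9% and 7.44% given above. Over the alternatives tried, the 6 calls became 3 to 9, the 10 became 7 to 11, the 7 became 2 to 11 and the 2 became 0 to 2. The 6 were 3 without replicate 1 or 2 of the drug-treated shRNA-labelled line or replicate 2 or 3 of that line untreated, and the 2 were 0 or 1 without any 1 of the 6 arrays compared. NASP, an H3 and H4 chaperone that also binds H1, differed by -0.86 ± 0.15 with doxycycline in the shRNA-labelled line (limma, adjusted p = 0.00348). ASF1B, which hands H3 and H4 to chromatin assembly factors, differed by -1.24 ± 0.18 in the control line (limma, adjusted p = 0.00113). CHAF1A and CHAF1B, subunits of chromatin assembly factor 1, were higher in the shRNA-labelled line than in the control line under doxycycline, by 0.82 ± 0.13 and 0.83 ± 0.12 (limma, adjusted p = 0.0008 and 0.00053).

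Of 19 genes for histone transcription and mRNA end processing, 2 fell with doxycycline in the shRNA-labelled line and 5 fell in the control line, and 0 rose in either, where 5.01% and 8.1% of all genes fell. The 2 became 0 to 2 over the alternatives tried, with 0 or 1 without replicate 1 or 2 of the drug-treated shRNA-labelled line, replicate 2 or 3 of that line untreated, or replicate 2 of the control line with doxycycline. The 5 became 2 to 6, with 3 without replicate 2 of the control line with doxycycline or replicate 1 without it. SLBP differed by -0.46 ± 0.099 in the shRNA-labelled line (limma, adjusted p = 0.0129), against -0.52 ± 0.099 in the control line (limma, adjusted p = 0.00523). CCNE1, the cyclin whose kinase activates the histone coactivator NPAT, differed by -0.42 ± 0.12 in the shRNA-labelled line (limma, adjusted p = 0.036), against -0.59 ± 0.12 in the control line (limma, adjusted p = 0.00603). NPAT itself differed by -0.42 ± 0.11 in the control line (limma, adjusted p = 0.0275). Between the lines 3 of the 19 were higher with doxycycline and 2 without, and 0 lower in either, where 10.9% and 7.44% of all genes were higher. The 3 became 1 to 4 and the 2 became 1 to 4 over the alternatives tried, with 1 in place of the 2 without replicate 1 or 3 of either untreated line. CCNE1 was higher in the shRNA-labelled line, by 1.13 ± 0.12 with doxycycline (limma, adjusted p = 5.37e-05) and by 0.96 ± 0.12 without (limma, adjusted p = 0.000299).

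Replacement histone variants, most of them encoded by single genes outside the clusters, had calls in both directions between the lines, among 11 tested that include H1-10. In the shRNA-labelled line 1 fell with doxycycline, MACROH2A2, with a difference of -0.53 ± 0.13 (limma, adjusted p = 0.0272), where 5.01% of all genes fell. The count of 1 became 0 to 3 over the alternatives tried. It was 0 without replicate 1 or 2 of that line with doxycycline or replicate 1 or 3 without it, and 2 without replicate 3 with the drug, replicate 2 without it, or, in the control line, replicate 1 with the drug or replicate 2 without it. The control line had 4 that fell and 0 that rose, MACROH2A2, CENPA, H3-3B and H2AX, with differences of -0.72, -0.66, -0.49 and -0.59 (limma, adjusted p = 0.00451, 0.00345, 0.0093 and 0.0403), where 8.1% of all genes fell. The 4 became 2 to 5 over the alternatives tried. Under doxycycline CENPA, the centromeric H3, was higher by 0.96 ± 0.12 in the shRNA-labelled line than in the control line (limma, adjusted p = 0.000183), and H2AJ, an H2A variant, was lower, with a difference of -0.48 ± 0.10 (limma, adjusted p = 0.00616). Without it CENPA was higher by 0.43 ± 0.12 (limma, adjusted p = 0.0295), and MACROH2A2 and H3-3B were lower, with differences of -0.60 ± 0.13 and -0.44 ± 0.11 (limma, adjusted p = 0.0123 and 0.0158). Of all genes 22.6% passed with doxycycline and 16.3% without. The 2 calls with doxycycline became 1 to 3 and the 3 without it 0 to 4 over the alternatives tried.

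A list of 7 clustered histone genes known for polyadenylated transcripts (H2AC6, H2BC4, H2BC5, H2BC11, H2BC12, H2BC21 and H1-2) is given beside the other 25. With doxycycline 1 of the 7 and 1 of the 25 rose in the shRNA-labelled line, and 2 of the 7 and 5 of the 25 rose in the control line, where 6.49% and 7.88% of all genes rose. Under doxycycline 4 of the 7 and 8 of the 25 were lower in the shRNA-labelled line than in the control line, and the medians were -0.72 for the 7 and -0.26 for the 25. Without it 2 of the 7 and 3 of the 25 were lower. Of all genes 11.8% were lower with doxycycline and 8.87% without. For the 7, the 1 call became 0 to 2, the 2 in the control line became 2 to 4, the 4 became 3 to 5 and the 2 without doxycycline became 0 to 2 over the alternatives tried. The 1 was 0 without replicate 1 or 2 of the drug-treated shRNA-labelled line or replicate 1 or 3 of that line untreated. The 2 in the control line were 4 without replicate 2 of the shRNA-labelled line with doxycycline. The 2 without doxycycline were 0 or 1 without any 1 of 5 of the 6 arrays compared, all but replicate 2 of the control line, and 1 without replicate 1 of the shRNA-labelled line with doxycycline. Whether the lists differ was not tested.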

How the data were processed

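Biotin-labelled cRNA had been put on Illumina bead arrays of 1 chip, per the labels. The deposited table of non-normalized values holds, per the file headers, a mean bead intensity on a linear scale and a detection p-value for each of 47314 probes and 12 arrays. The programs GenomeStudio and lumi appear, without version or role, per the submitters' processing notes. A second deposited table holds the authors' values, close to a log2 scale as read from the values, and served only as an alternative.

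Intensities were background-corrected with limma 3.58.1 in R 4.3.3 (normal-exponential model, negative controls inferred from the detection p-values, offset 16), quantile-normalized and taken to log2. Probes were named through the platform annotation and Entrez identifiers in a RefSeq gene table. Of the probes 30109 had 1 symbol, 8 had several and 17197 none, and 22417 probes passed the filter. A means model of the 4 groups was fitted with limma, and 5 contrasts were tested, two-sided, with Benjamini-Hochberg adjustment over 12566 genes and a threshold of 0.05. The fit was tested on simulated data for doxycycline in the shRNA-labelled line: over 12566 genes it recovered 77% of log2 changes of 1 and 99% of log2 changes of 2, and 5.88% of its calls were false. Only 100 genes were changed at each size, with independent normal noise, where the data gave 1445 calls. The histone differences of that comparison lay between -0.56 and 0.64, and recovery of changes so small was not simulated. A fold is given as a bound for a probe that no array of 1 group detected: the mean of the brighter group over the mean, across the dim group's arrays, of the probe's signal or the weakest detected one, whichever was larger.

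The histone genes and the other lists were chosen with earlier results of these data known. Named histone genes were those past the threshold (at most the 6 with the smallest adjusted p in each direction of a comparison) and the leading gene of each class. For genes named because they passed a comparison, lack of overlap between its groups follows largely from that choice. It is no separate evidence, and its share over all genes was not computed. From the other lists the named genes are among the 4 leading by adjusted p, or all that passed if there were no more than 4. Replicate numbers of the labels were checked as pairs: 5 of 18 same-numbered pairs of arrays had correlated deviations over 0.1, so the numbers were not taken as pairs. The alternatives were an offset of 50 without detection p-values, no background correction, median scaling, the deposited authors' values, looser and stricter detection filters, a mean over probes, a fit without the groups not compared, the replicate block, a trended robust variance, weights for arrays, and each array left out. The counts for the other lists under these alternatives were added after the data were seen. Promoters were searched for exact motif matches and aligned with Biopython.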

Additional observations from a re-analysis of the deposited data

Results flagged for a closer look

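H2BC11, an H2B gene, had differences of opposite sign with doxycycline in the 2 lines, with no overlap between arrays with and without the drug in either. These traits are the rule by which it was flagged among the histone genes, so they are no separate evidence. A histone gene past the threshold for the difference of responses would also have been flagged. How many of all genes meet the rule was not counted. The log2 levels of H2BC11 were 6.82, 6.32 and 7.03 in the shRNA-labelled line with doxycycline and 7.25, 7.14 and 7.35 without. In the control line they were 7.49, 7.65 and 7.24 with doxycycline and 7.06, 6.96 and 6.94 without. The differences were -0.53 ± 0.17 in the shRNA-labelled line (log2, SE; limma, adjusted p = 0.0628) and 0.47 ± 0.17 in the control line (limma, adjusted p = 0.0767), and neither passed. The difference of the responses was -1.0 ± 0.23 (log2, SE) and did not pass limma's test over all genes (adjusted p = 0.0722). The probe was detected on 2 of 3 arrays of the shRNA-labelled line with doxycycline and on all arrays of the other groups.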

How the results depend on the processing

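No histone gene past the threshold changed direction under any alternative, and the median between the lines without doxycycline, -0.06, lay between -0.09 and 0.02. With doxycycline in the shRNA-labelled line, the count of 2 histone genes was 0 with median scaling, 1 without a filter, 6 with array weights (3 higher and 3 lower) and 1 to 2 with single arrays left out. In the control line the count of 7 was 4 with median scaling and 4 to 9 with single arrays left out, and the median of 0.21 was 0.06 without a filter. For the difference of responses the count of 0 was 1 with no background correction, 3 with array weights and 0 to 1 with single arrays left out, and the median of -0.30 was -0.14 with no background correction and -0.10 without a filter. Between the lines with doxycycline the median of -0.38 was -0.16 with no background correction, -0.06 without a filter and between -0.46 and -0.26 with single arrays left out. Between the lines without doxycycline the count of 5 was 3 to 6 with single arrays left out. With the replicate block the counts were 3, 8, 0, 15 and 5 in the order shRNA-labelled line, control line, difference of responses, lines with and lines without doxycycline. Other counts and medians of the histone genes stayed within 1.5 times or within 0.12, the SD between replicates of the median histone level. Over all genes, median scaling gave 787 calls in place of 1445 in the shRNA-labelled line, 1027 in place of 2008 in the control line, 57 in place of 106 for the difference, 1670 in place of 2843 with doxycycline and 984 in place of 2049 without. Array weights gave 2694, 527 and 3366 calls in the shRNA-labelled line, for the difference and without doxycycline, and the compared groups alone gave 952 in the shRNA-labelled line. The 106 calls for the difference were 206 with an offset of 50 and no detection p-values, 319 with no background correction, 170 with detection on all 3 arrays of a group, 43 without a filter and 301 with trended robust variance. Leaving out single arrays gave 785 to 1557 calls in the shRNA-labelled line, 1190 to 2096 in the control line, 15 to 206 for the difference and 1142 to 2162 between the lines without doxycycline. The causes were not tested. Without a filter, probes at background entered the medians. Of the 32 genes 11 were not detected on all 12 arrays, which limits the precision of their differences, as does the number of 3 arrays a group.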
